A study of Macaca mulatta and Mus musculus with 5 samples.

Results

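RGS1, RGS2 and RGS16 are 3 members of the family of regulators of G protein signalling, and they were followed in every cell class of macaque meninges, macaque spleen and mouse meninges. They were picked by name, with their higher level in meninges already known from these data. The comparison of mouse Rgs16 in Rag1-positive B cells was part of the same choice. The differences between tissues and by Rag1 below are therefore descriptions and carry no test. The 3 genes stood among 14949 genes listed in the macaque tables, and the mouse genes Rgs1, Rgs2 and Rgs16 among 31017 genes of the mouse table. RGS proteins act as brakes on G protein-coupled receptors: they speed the hydrolysis of GTP by the alpha subunit, which switches the G protein off. In lymphocytes the receptors upstream are mainly chemokine and lipid receptors that steer cells through tissue. RGS1 and RGS16 are known as inhibitors of chemokine-directed migration, RGS2 is known for its preference for the Gq class, and all are known to be induced by activation.

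The macaque samples were meninges and spleen of Chinese rhesus macaques, female and aged 4 to 8 years, with 2 channels (replicate libraries of the 10x single-cell method, which tags the 3' end of transcripts) per tissue. The mouse sample was 1 library of meninges from male C57BL/6 mice aged 2, 21 and 48 days, which had been labelled with hashtag antibodies and pooled; the hashtags that would separate the ages were not used here, so all mouse values average over the ages. Cells had been sorted by flow cytometry, with the gate written as CD45–CD11b– for mouse and CD45–CD11b–CD3– for macaque, with a load of 30000 cells for the mouse channel and 8000 for each macaque channel. No genotype, infection or treatment is given for any sample. The labels do not say whether channels came from different animals or whether the tissues came from the same animals, so the spread between channels may be technical, and every p-value below measures only that spread.

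After filtering, 4068 and 4308 meningeal and 5839 and 6783 splenic macaque cells and 13440 mouse cells remained, with median unique molecular identifiers (UMIs, counted transcripts) of 4097, 4034.5, 2404, 2668 and 6430 per cell. Any pair of libraries shared 4 to 28 barcodes. Cells were placed in classes by raw UMIs of marker genes, in the same way in both tissues. Levels are in CPM, the UMIs of a gene summed over a class in a channel, per 1000000 UMIs of that class. Shares are the percentage of cells with at least 1 UMI of the gene after each cell was thinned at random to 1000 UMIs (macaque) or 2000 UMIs (mouse). The labelled sort and the transcripts differed. The gate is written as CD45– and CD11b–, yet the gated classes were leukocytes by their transcripts, with B, T, NK and myeloid cells, and 1024 of 1242 and 1045 of 1326 meningeal cells of the GZMB-positive class, the largest lymphocyte class outside the B lineage, held a UMI of CD3D, CD3E or CD3G, although the gate is written as CD3–. Summed stromal markers were low, between 0 and 99.2 CPM in the tested classes.

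The genes share a chromosome. In the mouse (GRCm38), Rgs2 lies at chr1:143999338-144004161 on the minus strand and Rgs1 at chr1:144242296-144249242 on the minus strand, with Rgs13 between them and Rgs21 and Rgs18 beyond Rgs1. Rgs16 lies apart at chr1:153740349-153745468 on the plus strand, next to Rgs8. Of 21 mouse Rgs genes, 11 are on chromosome 1. In the macaque RefSeq table the same genes neighbour each other: RGS13 flanks both RGS1 and RGS2, and RGS16 sits beside RGS8. Short-lived messages often carry AU-rich elements in the 3' UTR, the sites bound by RNA-destabilising proteins such as ZFP36. The 3' UTR of Rgs1 holds 10 copies of the core letters ATTTA in 3006 bases, that of Rgs2 holds 5 in 2342 bases and that of Rgs16 holds 4 in 1613 bases. As many copies or more were found in 18.0%, 43.7% and 37.0% of genes with a 3' UTR of like length. The longer element TTATTTATT, whose letters include an ATTTA, occurs once in Rgs1, 2 times in Rgs16 and not in Rgs2, against 7.83% of all 20481 mouse genes with at least 1 copy on the transcribed strand, and 14.0% and 9.02% of those with a 3' UTR as long as that of Rgs1 and of Rgs16. One such site of each gene is shown, with the element in capitals and T written for U. The Rgs1 site is at chr1:144243188-144243217 on the minus strand and the Rgs16 site at chr1:153745323-153745352 on the plus strand. These motifs were chosen after the expression values were seen and are a description of the letters only.
Rgs1: aaagttttaaatgtttaTTATTTATTactt
Rgs16: ccccactgtgttaatatTTATTTATTgtta

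In macaque, 7 classes held at least 50 cells in each of the 4 channels and could be compared between tissues. RGS1, RGS2 and RGS16 were all higher in meninges than in spleen: of 19 gene-by-class pairs with enough counts for a fit, 19 were higher in meninges and in 19 the meningeal channels lay wholly above the splenic ones. For comparison, the share of all genes tested that were called higher in meninges by edgeR (quasi-likelihood test, Benjamini-Hochberg adjusted p under 0.05) was 16.7% in atypical-type B cells, 15.7% in follicular-type, 11.9% in IGHM-low, 18.8% in IGHM-positive FCER2-negative, 0.883% in non-cycling germinal centre B cells, 6.72% in plasma cells and 18.1% in GZMB-positive cells. These shares are of calls by the test. The share of all genes that were higher in meninges, or whose channels lay apart, was not computed. Since the genes were also picked for this contrast, nothing is read from their count.

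**Figure D1:**
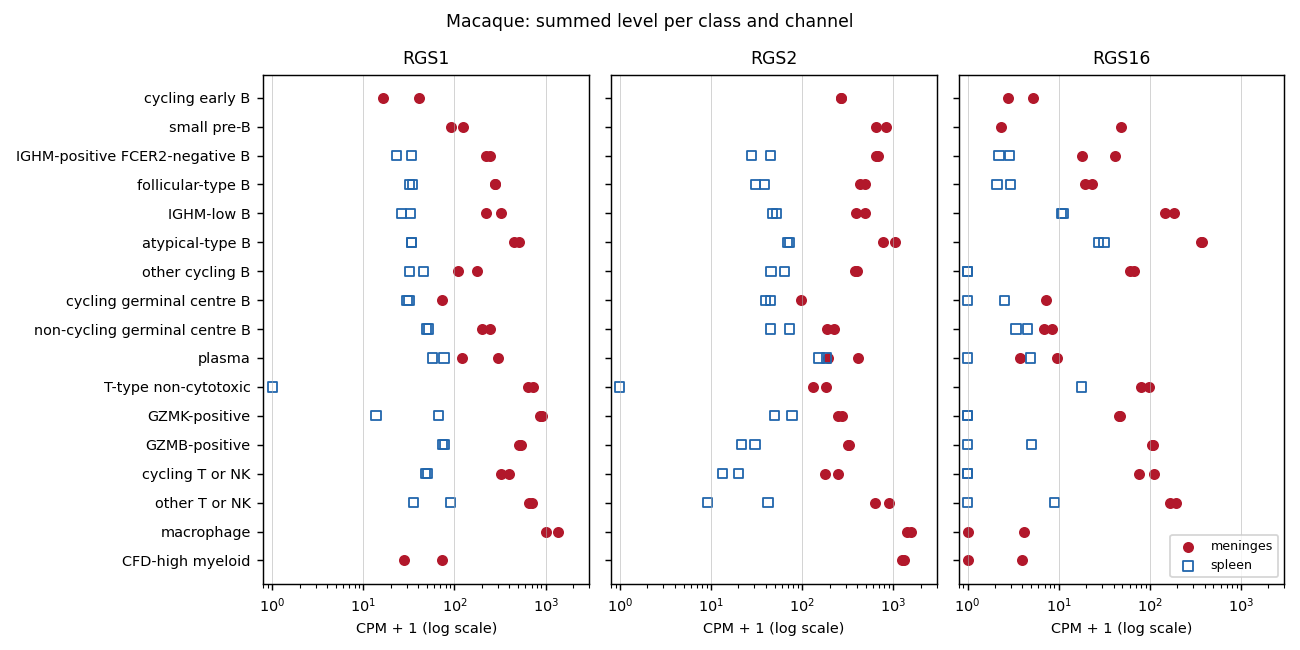
Level of RGS1, RGS2 and RGS16 in macaque cell classes, as CPM + 1 on a log axis; each point is 1 channel, filled circles are meninges and open squares spleen, and classes with fewer than 20 cells in a channel have no point there. Meningeal points lie to the right of splenic ones for RGS1 and RGS2 in each class with both tissues, while RGS16 is near 0 in myeloid cells and in germinal centre cells and highest in atypical-type B cells, at 371 and 361 CPM.

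RGS1 limits the response of B and T cells to chemokines and is a well-known marker of lymphocytes held in tissue. In follicular-type B cells, the B cells with a UMI of FCER2 (CD23), RGS1 reached 278 and 276 CPM in the meningeal channels and 33.3 and 31.2 CPM in the splenic ones. The fitted log2 difference was 3.17 ± 0.10 (SE, here and below). In atypical-type B cells, defined by FCRL5 or ITGAX, it reached 506 and 449 CPM against 33.0 and 33.0 CPM, a log2 difference of 3.99 ± 0.11. Channels of a tissue lay close together and the tissues were far apart. IGHM-low B cells, the rest of the mature B cells with fewer than 2 IGHM UMIs, had 325 and 220 CPM against 25.4 and 31.8 CPM (3.44 ± 0.21), and IGHM-positive FCER2-negative B cells 222 and 243 CPM against 32.9 and 22.2 CPM (3.18 ± 0.16). GZMB-positive lymphocytes, which carry the cytotoxic protease granzyme B, had 507 and 530 CPM against 77.5 and 72.2 CPM (3.04 ± 0.11). In the splenic channels, RGS1 was thus highest in GZMB-positive and plasma cells and stood between 22.2 and 50.9 CPM in the other tested classes.

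The gap was smaller in germinal centre and plasma cells, though this difference between classes was not tested. Non-cycling germinal centre B cells, gated on germinal centre markers such as S1PR2 and MYBL1, had 197 and 247 CPM of RGS1 in meninges and 48.5 and 50.9 CPM in spleen (2.17 ± 0.17). These rested on 50 and 60 meningeal cells. Plasma cells, gated on JCHAIN without MS4A1, had 119 and 301 CPM against 75.7 and 55.8 CPM (1.91 ± 0.37). The meningeal plasma channels differed from each other by more than the lower of them differed from spleen, and without meningeal channel 2 the log2 difference of RGS1 was 1.11. In these plasma cells the summed markers of T and NK cells were 868 and 187 CPM in the meningeal channels and 260 and 213 CPM in the splenic ones; their part in the result was not tested.

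RGS2 shortens signals through Gq-coupled receptors and is an early-response gene of activated lymphocytes. In IGHM-positive FCER2-negative B cells it reached 651 and 673 CPM in meninges and 44.3 and 27.0 CPM in spleen, a log2 difference of 4.31 ± 0.16. Follicular-type B cells had 493 and 432 CPM against 29.7 and 37.7 CPM (3.84 ± 0.12). In atypical-type B cells the values were 774 and 1033 CPM against 72.1 and 68.6 CPM (3.82 ± 0.13). IGHM-low B cells had 391 and 486 CPM against 51.8 and 46.5 CPM (3.39 ± 0.17), and GZMB-positive cells 318 and 326 CPM against 29.4 and 20.4 CPM (3.95 ± 0.15). In each of these classes the lower meningeal channel was several times the higher splenic one. Germinal centre B cells again differed less, with 185 and 225 CPM against 71.4 and 44.0 CPM (1.84 ± 0.22). Plasma cells had 189 and 406 CPM against 182 and 152 CPM (1.05 ± 0.28). The plasma value rested on meningeal channel 2, without which it was 0.43.

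RGS16 is a brake on Gi- and Gq-coupled chemokine receptors and is induced in activated T cells. Among the macaque B cell classes compared between tissues, it was highest in 2. Atypical-type B cells had 371 and 361 CPM in meninges and 26.3 and 30.5 CPM in spleen (3.82 ± 0.12), and IGHM-low B cells had 147 and 182 CPM against 9.6 and 10.2 CPM (4.25 ± 0.24). Follicular-type B cells of the same libraries had only 22.1 and 18.4 CPM against 2.0 and 1.1 CPM (3.76 ± 0.29), so the class was low in both tissues while the ratio was of like size. IGHM-positive FCER2-negative B cells had 40.9 and 17.2 CPM against 1.9 and 1.2 CPM (4.25 ± 0.42). The order of the classes was thus the same in both tissues for the highest class, atypical-type B cells, and the next, IGHM-low B cells.

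In GZMB-positive cells RGS16 reached 106 and 108 CPM in meninges. In spleen it was seen as 3 UMIs in 1 cell of channel 1 (4.0 CPM) and not at all in the 445 cells of channel 2. From the summed counts the ratio was 56.3, with a 95% interval of 19.2 to 274 that covers counting error only; the fitted log2 difference of 6.02 ± 0.35 depends on the prior count and ranged from 4.999 to 11.56 as single channels were left out. RGS16 could not be fitted in germinal centre B cells, at 6.0 and 7.4 CPM against 3.5 and 2.4 CPM, or in plasma cells, at 2.8 and 8.6 CPM against 3.9 and 0 CPM, where the channels overlapped. RGS16 was thus low in plasma and germinal centre cells of both tissues.

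**Figure D2:**
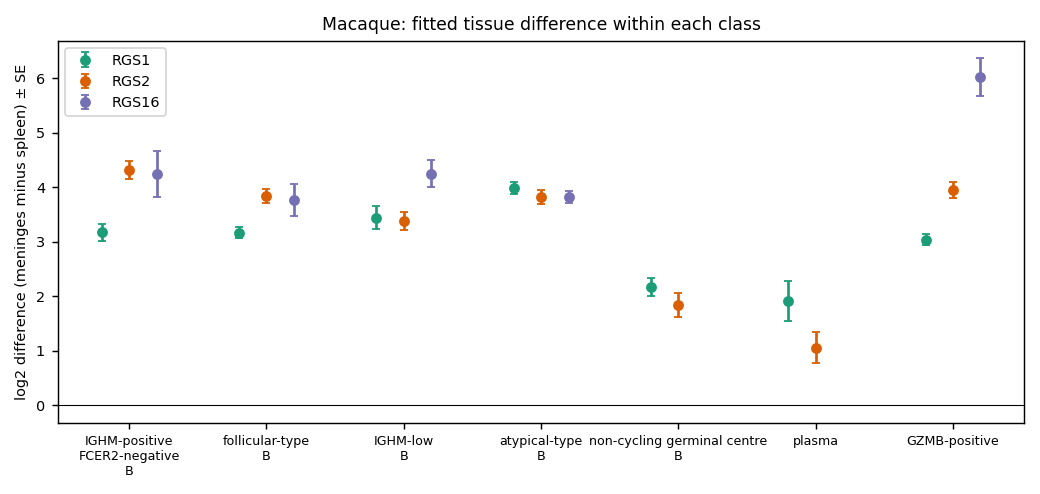
Fitted log2 difference, meninges minus spleen, of RGS1, RGS2 and RGS16 in the 7 macaque classes compared, from edgeR on UMIs summed per class and channel (n = 2 channels per tissue); bars are ± 1 SE. All values lie above 0, between 1.05 (RGS2 in plasma cells) and 6.02 (RGS16 in GZMB-positive cells), and germinal centre and plasma cells have the lowest; RGS16 was not fitted in those classes.

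Meningeal cells were sequenced more deeply, with a median of 4711 and 4867 UMIs in follicular-type B cells against 3534.5 and 3188.5 in spleen, and 3521 and 3514 against 946.5 and 2020 in IGHM-positive FCER2-negative B cells. After every cell had been thinned to 1000 UMIs the shares of cells with a UMI still differed. A UMI of RGS1 was found in 16.9% and 15.9% of thinned meningeal follicular-type B cells against 3.61% and 2.56% of splenic ones, and in 29.0% and 27.6% against 1.74% and 5.27% of atypical-type B cells. RGS2 was found in 42.7% and 41.2% of meningeal atypical-type B cells against 7.63% and 6.40% in spleen. RGS16 was found in 21.2% and 19.4% of them against 2.18% and 3.01%. GZMB-positive cells held RGS16 in 6.59% and 8.01% of meningeal cells against 0.38% in spleen channel 1 and 0 of 361 in channel 2, which allows a share of up to 0.831%. RNA set free from broken cells can give single UMIs in any cell, and a class of the same meningeal channels that lacks the gene gives its size at the depth of that class. RGS16 was found in 0 of 138 and 0 of 157 thinned CFD-high myeloid cells, whose median depth before thinning was 6881 and 6569 UMIs against 3750 and 3711 in GZMB-positive cells. These zeros allow shares of up to 2.17% and 1.91% in these deeper cells, and the background of shallower classes may be larger. For RGS1 the CFD-high cells gave 1.45% and 3.18%, under the meningeal shares of follicular-type, atypical-type and GZMB-positive cells. The shares of meningeal cycling early B cells, 5.56% and 2.27%, and the splenic shares of follicular-type and atypical-type B cells were near this level. CFD-high cells express RGS2, and no meningeal class was taken to lack it. No splenic class was taken to lack RGS1 or RGS2, so the low splenic shares were not separated from background.

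Within the atypical-type gate, RGS16 went with ITGAX (CD11c), a marker of age-associated and atypical memory B cells. Meningeal cells with a UMI of ITGAX had 402 and 427 CPM of RGS16 and those without had 254 and 169 CPM. The order was the same in spleen, with 39.7 and 42.1 CPM against 6.0 and 10.9 CPM. RGS2 showed a similar order, 839 and 1180 CPM with ITGAX and 530 and 607 CPM without in meninges, while RGS1 was 501 and 494 CPM with and 527 and 320 CPM without, so that its channels overlapped. Among GZMB-positive meningeal cells, those with no CD3 UMI had 205 and 202 CPM of RGS16 and 582 and 612 CPM of RGS2. Those with a CD3 UMI had 85.8 and 84.9 CPM and 266 and 255 CPM. RGS1 was at 607 and 579 CPM against 487 and 518 CPM. In spleen this order was not seen: cells without CD3 had 70.9 and 57.3 CPM of RGS1 and 17.7 and 22.9 CPM of RGS2, against 81.4 and 79.0 CPM and 36.4 and 19.3 CPM with CD3. RGS16 UMIs were uneven among cells: the 5% of meningeal atypical-type cells with most of them held 36.6% and 41.3% of all RGS16 UMIs of the class, with at most 21 and 40 UMIs in 1 cell.

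RGS2 was found more often in meningeal B cells that also held RGS1. In follicular-type cells RGS2 was found in 43.6% and 37.2% of cells with a UMI of RGS1 and in 20.7% and 19.0% of cells without. In atypical-type cells the values were 51.7% and 57.4% against 39.0% and 35.0%. RGS16 did not follow RGS1 there: it was found in 11.2% and 17.0% of atypical-type cells with RGS1 and in 25.2% and 20.3% of those without. It was found in 34 of 131 and 33 of 140 atypical-type cells with RGS2, against 17.6% and 16.5% of those without. In splenic follicular-type cells RGS2 was found in 2 of 43 and 1 of 39 cells with RGS1. Cells of a channel are not replicates, so these shares are descriptions of each library.

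In the lymphocyte classes too small in spleen for a fit, RGS1 and RGS2 were also higher in meninges. GZMK-positive lymphocytes had 919 and 867 CPM of RGS1 in meninges and 12.8 and 65.7 CPM in 29 and 24 splenic cells. Cycling T or NK cells had 111 and 76.1 CPM of RGS16 in meninges and none in 49 splenic cells, which makes the meningeal level at least 5.78-fold higher, taking 3 UMIs over both splenic channels as the floor. Other cycling B cells had 66.3 and 59.0 CPM of RGS16 in meninges and none in spleen, at least 17.3-fold higher by the same floor. Meningeal macrophages, gated on C1Q genes, had 1004 and 1366 CPM of RGS1 and 1406 and 1581 CPM of RGS2, but 3.1 and 0 CPM of RGS16. CFD-high myeloid cells were of another kind, with RGS2 at 1247 and 1305 CPM and found in 58.0% and 57.3% of thinned cells, RGS1 at only 27.3 and 72.1 CPM and RGS16 at 0 and 3.0 CPM. Spleen held only 3 to 5 macrophages or CFD-high cells per channel, too few to set beside them. The remaining myeloid cells did not follow this order for RGS2, with a mean of 684 CPM in meninges and 1220 CPM in the 6 and 5 splenic cells, where the channels overlapped. RGS16 overlapped between tissues in each myeloid class and in cycling germinal centre B cells.

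Meningeal B-lineage precursors had little RGS1 but much RGS2. Cycling early B cells, which carry RAG1, RAG2, DNTT or VPREB1 with MKI67 or TOP2A, had 15.4 and 40.3 CPM of RGS1, and small pre-B cells, the non-cycling cells with the same markers, had 89.6 and 123 CPM. Over the same steps RGS2 was at 264 and 266 CPM and at 643 and 836 CPM. The RGS2 level of small pre-B cells lay within the range of the mature B classes of the same channels, from IGHM-low to atypical-type. RGS16 was near absent in both: cycling early B cells had 4.2 and 1.8 CPM, and small pre-B cells had 1 UMI in 225 cells of channel 1 and 47.5 CPM in channel 2. The channel 2 value came from 5 of 211 cells, 1 of which held 15 UMIs. After thinning, 0 of 220 and 0 of 208 small pre-B cells held RGS16, which allows shares of up to 1.36% and 1.44%.

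The other genes of the pathway gave the members a setting, since the same edgeR fits tested them with adjustment over all genes. These lists were chosen with earlier results of these data known, so their counts here and below are descriptions. Of 17 other RGS genes, 4 or 5 had enough counts in a class, and edgeR called 0 of 33 gene-by-class pairs higher in meninges. Of all genes tested, it called 0.883% to 18.8% higher in these classes, so nothing about the members is read from this 0. At an unadjusted p under 0.05, 1 pair was higher in meninges, RGS14, a regulator of Gi, in atypical-type B cells (log2 difference 0.40 ± 0.17, edgeR adjusted p = 0.0834). DESeq2 called 0 pairs higher, with 0 at an unadjusted p under 0.05. Without the filter on low counts, 1 of 62 pairs was called, RGS12 in IGHM-positive FCER2-negative B cells, from 2 and 7 UMIs in meninges and 1 and 0 in spleen. RGS19, a regulator of Gi found in most leukocytes, had log2 differences between -0.48 and 0.17 and passed in no class. Lower calls were 1 of 5 in each of atypical-type, follicular-type and GZMB-positive cells and 1 of 4 in plasma cells. They were 2 of 4 in IGHM-low, 2 of 5 in IGHM-positive FCER2-negative and 0 of 5 in germinal centre B cells. Of all genes tested, 0.23% to 14.8% were called lower in these classes. RGS9 was lower in IGHM-low B cells (-1.90 ± 0.40, edgeR adjusted p = 0.00232) and in IGHM-positive FCER2-negative B cells (-0.76 ± 0.17, adjusted p = 0.000808). RGS14 was lower in GZMB-positive cells (-0.57 ± 0.17, adjusted p = 0.0157).

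RGS13, the gene between RGS1 and RGS2 on the chromosome and known as a germinal centre regulator of chemokine responses, differed from its neighbours in direction; it was singled out after its values were seen. In follicular-type B cells it had 1.9 and 0.64 CPM in meninges and 7.2 and 9.0 CPM in spleen (-2.58 ± 0.44, edgeR adjusted p = 0.000537). It was also lower in atypical-type B cells (-2.35 ± 0.54, adjusted p = 0.00325), IGHM-low B cells (-2.09 ± 0.44, adjusted p = 0.00236) and plasma cells (-2.19 ± 0.53, adjusted p = 0.0261). In IGHM-positive FCER2-negative B cells it had 0 UMIs in meninges and 29 and 24 in spleen (adjusted p = 1.52e-05). In non-cycling germinal centre B cells, where it is most abundant, it had 77.6 and 98.9 CPM in meninges and 136 and 129 CPM in spleen (-0.57 ± 0.18, adjusted p = 0.182). These germinal centre cells were 7.55% and 8.03% of splenic cells but 1.23% and 1.39% of meningeal ones, and the part of free RNA from them in the low counts of the other classes was not tested.

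Among receptors upstream of the brakes, more were called higher than lower in each of the 7 classes. The test called 9 of 15 receptors higher and 1 lower in atypical-type B cells, 9 higher and 3 lower of 15 in follicular-type, 7 higher and 1 lower of 12 in IGHM-low, 6 higher and 4 lower of 15 in IGHM-positive FCER2-negative, 8 higher and 1 lower of 17 in GZMB-positive, 2 higher of 12 in germinal centre B cells and 3 higher of 8 in plasma cells. Of all genes tested, edgeR called 28.2%, 27.2%, 18.3%, 33.6%, 31.6%, 1.11% and 8.75% in either direction in these classes, in the same order, and 11.5%, 11.4%, 6.4%, 14.8%, 13.5%, 0.23% and 2.02% lower. The median log2 difference of the receptors was 0.85, 0.36, 1.05, 0.01, 0.45, 0.47 and 0.78 in these classes, against -0.02 to 0.00 for all genes tested, so that it lay near that of all genes in IGHM-positive FCER2-negative B cells. CCR7, which draws lymphocytes to lymphoid tissue, rose from 23.1 and 18.4 CPM in spleen to 214 and 207 CPM in meningeal follicular-type B cells (3.41 ± 0.11, edgeR adjusted p = 1.07e-11). GPR183 (EBI2), an oxysterol receptor that positions B cells, had 381 and 421 CPM against 94.2 and 77.9 CPM there (2.29 ± 0.10, adjusted p = 2.66e-10). CXCR4, the CXCL12 receptor on which RGS1 and RGS16 are known to act, rose by 3.52 ± 0.08 in GZMB-positive cells (adjusted p = 5.64e-14) and by 1.60 ± 0.14 in IGHM-positive FCER2-negative B cells (adjusted p = 4.08e-10). In germinal centre B cells it had 478 and 465 CPM in meninges and 472 and 476 CPM in spleen. CCR6, the CCL20 receptor, went the other way and fell by 1.28 ± 0.12 in follicular-type B cells, from 117 and 93.1 CPM to 43.5 and 39.0 CPM (adjusted p = 1.93e-06). GPR174, a lysophosphatidylserine receptor, fell in the same cells by 0.65 ± 0.14 (adjusted p = 0.00306), and P2RY8, a confinement receptor coupled to G alpha 13, rose by 1.30 ± 0.12 (adjusted p = 1.02e-06). In the other B cell classes CCR7 rose by 3.64 ± 0.13 (atypical-type), 3.84 ± 0.20 (IGHM-low) and 2.94 ± 0.16 (IGHM-positive FCER2-negative), and GPR183 by 2.82 ± 0.09, 3.799 ± 0.14 and 2.00 ± 0.13. CCR6 fell by 1.26 ± 0.19, 1.04 ± 0.26 and 2.31 ± 0.18 in the same order, and GPR174 by 1.18 ± 0.20 in IGHM-positive FCER2-negative B cells. GPR183 rose by 2.76 ± 0.22 in GZMB-positive cells. In plasma cells GPR183 (2.19 ± 0.49), CXCR4 (1.43 ± 0.24) and P2RY10 (1.09 ± 0.24), another lysophosphatidylserine receptor, rose.

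G protein subunits, receptor kinases and effectors were counted in the same way. Of the G protein subunits, 5 of 9 rose and 1 fell in atypical-type B cells and 3 of 11 rose in follicular-type. In IGHM-low 2 of 9 rose and 1 fell, and in IGHM-positive FCER2-negative B cells 5 of 11 rose. In GZMB-positive cells 4 of 10 rose and 1 fell. With edgeR, 0 of 9 passed in germinal centre B cells and 0 of 8 in plasma cells. Of all genes tested, 16.7%, 15.7%, 11.9%, 18.8%, 18.1%, 0.883% and 6.72% were called higher in these classes, in the same order. GNA13, the alpha 13 subunit, rose by 1.72 ± 0.11 in atypical-type (edgeR adjusted p = 1.47e-09) and by 1.44 ± 0.19 in IGHM-low B cells (adjusted p = 1.81e-05). Receptor kinases and arrestins passed the test for 2 of 6 members in atypical-type and, with edgeR, 0 of 6 in follicular-type B cells, where 1 had an unadjusted p under 0.05 and DESeq2 called 0 with 0 at that level. In GZMB-positive cells 1 of 5 rose and 1 fell. With edgeR, 0 of 6 passed in IGHM-low and 0 of 6 in IGHM-positive FCER2-negative B cells. In germinal centre B cells it was 0 of 5 and in plasma cells 0 of 3. Of the effectors, PDE4B, which breaks down cyclic AMP, rose by 2.76 ± 0.14 in GZMB-positive cells (adjusted p = 1.08e-09). GNAQ (-0.67 ± 0.14, adjusted p = 0.00211) and PRKACB (-0.57 ± 0.09, adjusted p = 0.000247), the Gq alpha subunit and a catalytic subunit of protein kinase A, fell there. VASP, an actin regulator, fell by 0.34 ± 0.10 in follicular-type B cells (adjusted p = 0.0189). All 5 pathway lists together gave 13 higher and 5 lower of 49 genes in follicular-type, 21 higher and 4 lower of 47 in atypical-type and 16 higher and 8 lower of 51 in GZMB-positive cells. They gave 11 higher and 4 lower of 42 in IGHM-low, 11 higher and 9 lower of 49 in IGHM-positive FCER2-negative and 2 higher of 42 in germinal centre B cells, and 4 higher and 1 lower of 30 in plasma cells. In IGHM-positive FCER2-negative B cells the median log2 difference was -0.09, and 18.8% of all genes were called higher and 14.8% lower.

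Immediate early genes, which respond within minutes to activation and also to the handling of tissue, moved with the members. This list was also chosen with earlier results of these data known, so its counts are a description. Of this list the test called 20 of 20 higher in follicular-type, 18 of 18 in atypical-type, 18 of 18 in IGHM-low, 19 of 19 in IGHM-positive FCER2-negative and 18 of 18 in GZMB-positive cells, and 12 of 14 in germinal centre B cells and 13 of 15 in plasma cells. Of all genes tested, 15.7%, 16.7%, 11.9%, 18.8%, 18.1%, 0.883% and 6.72% were called higher in these classes, in the same order. The median log2 difference of the list was 3.48, 3.38, 3.45, 3.30, 2.92, 2.34 and 2.85, against -0.02 to 0.00 for all genes tested. Their summed level was 8399 and 8840 CPM in meningeal and 1503 and 1458 CPM in splenic follicular-type B cells. It was 10312 and 11007 CPM against 1989 and 2031 CPM in atypical-type, and 9880 and 9919 CPM against 2419 and 2431 CPM in GZMB-positive cells. Germinal centre B cells had 2580 and 3171 CPM against 1134 and 1195 CPM, and plasma cells 11317 and 13895 CPM against 3369 and 2912 CPM. Markers of red blood cells were also higher, with sums of 27.8 and 20.3 CPM against 7.7 and 12.2 CPM in follicular-type and 96.9 and 72.3 CPM against 42.0 and 46.2 CPM in atypical-type B cells, and so were myeloid markers, at 88.4 and 102 CPM against 54.0 and 66.1 CPM in atypical-type B cells. The mean share of mitochondrial UMIs was lower in meninges, at 0.33% and 0.36% against 0.60% and 0.43% in follicular-type, 0.38% and 0.38% against 0.56% and 0.47% in atypical-type and 0.39% and 0.43% against 0.88% and 0.56% in IGHM-positive FCER2-negative B cells. The part of these in the members' levels was not tested.

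Cells of both tissues were therefore also set side by side in bins of immediate early UMIs, after thinning to 1000 UMIs. The top bin, 6 or more, has no upper limit, so counts within it were not matched between tissues. Whether immediate early state accounts for the tissue difference was not tested. Among follicular-type B cells with 1 to 2 immediate early UMIs, RGS1 was found in 11.4% and 7.92% of meningeal and 2.71% and 2.86% of splenic cells. With 3 to 5 UMIs the shares were 11.2% and 10.3% against 4.61% and 1.57%. With 6 or more they were 22.5% and 22.0% against 19.0% and 0%, where the splenic shares rest on only 42 and 33 cells. RGS2 in these bins was found in 18.1% and 10.9% against 1.91% and 3.22%, in 15.9% and 15.4% against 5.99% and 4.72%, and in 31.6% and 29.3% against 9.52% and 9.09%. Meningeal shares were highest in cells with 6 or more immediate early UMIs, and in each bin both lay above both splenic ones, by little for RGS1 in the top bin of spleen channel 1. In GZMB-positive cells with 1 to 2 such UMIs, RGS1 was found in 15.5% and 14.5% against 6.96% and 5.65%, and RGS16 in 3.50% and 7.27% against 0 of 115 and 0 of 177 cells. In atypical-type B cells with 3 to 5, RGS16 was found in 15.8% and 18.5% against 2.27% and 1.34%, and RGS1 in 21.1% and 7.69% against 0.76% and 8.05%, where the channels overlapped. With 6 or more, the bin of 72.3% and 70.6% of the meningeal cells, RGS16 was found in 23.4% and 21.2% against 5.26% and 15.2%, the latter of 38 and 33 splenic cells.

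**Figure D3:**
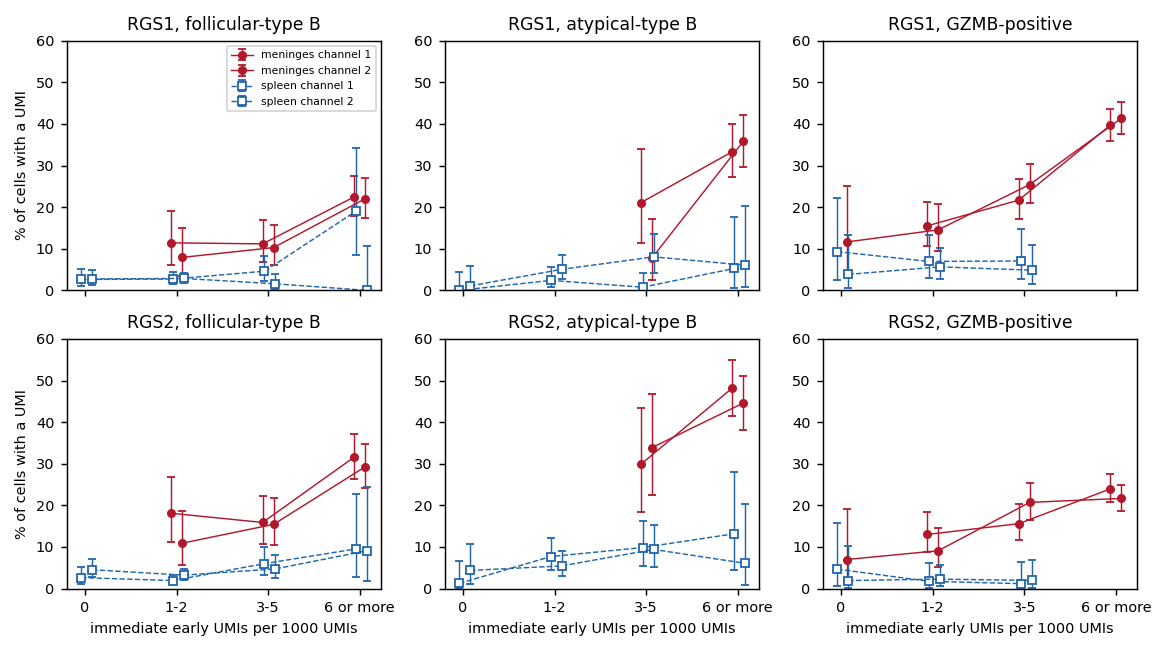
Share of cells with a UMI of RGS1 (top) or RGS2 (bottom) by the number of immediate early UMIs in the same cell, after thinning to 1000 UMIs, in 3 macaque classes; filled circles are meningeal and open squares splenic channels, with exact 95% binomial intervals that cover counting error only, and bins with few cells are not drawn. Meningeal shares of RGS2 lie above the splenic ones in the same bin, and the top bin has no upper limit. For RGS1 the channels overlap among atypical-type B cells with 3 to 5.

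In the mouse library the members marked different cells. With 1 library there is no replicate, so each CPM has a 95% Poisson interval that covers counting error only. Rgs1 was highest in natural killer cells, at 1986 CPM (1916 to 2058). It was next highest in other T or NK cells at 1540 CPM, Nkg7-positive T cells at 1365 CPM, Gata3-positive innate lymphoid-type cells at 1024 CPM and Cd8b1-positive T cells at 958 CPM, and the intervals of the last pair overlapped. Along the B lineage it was low in precursors and higher in mature cells: 24.8 CPM (20.4 to 29.8) in resting pro-B cells, 14.5 and 13.4 CPM in cycling pro-B and cycling pre-B cells with surrogate light chain, 30.6 CPM (27.9 to 33.6) in small pre-B cells, 137 CPM (131 to 144) in immature or transitional-type and 198 CPM (186 to 210) in mature follicular-type B cells.

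Rgs2 was found in each class of the library, from 18.6% of thinned cycling pro-B cells upwards, and no class was taken to lack it, so its background share is not known. For Rgs1 the class with the lowest share, cycling pre-B cells with surrogate light chain, gave 2.77%. The highest Rgs2 level was in Gata3-positive innate lymphoid-type cells, at 1273 CPM (1217 to 1331), followed by basophil-lineage cells at 832 CPM and NK cells at 783 CPM. Within the B lineage it was lowest in cycling pro-B cells, at 85.7 CPM (79.3 to 92.4), and in cycling pre-B cells with surrogate light chain, at 129 CPM. Resting pro-B cells had 199 CPM and cycling B cells without surrogate light chain 315 CPM. Small pre-B cells had 630 CPM (617 to 643), and the later stages stayed near this, between 597 and 673 CPM. The intervals of small pre-B and mature follicular-type cells (617 CPM, 596 to 639) overlapped. That of immature or transitional-type cells (673 CPM, 659 to 687) lay above both. In both species the small pre-B cells thus had more of it than the cycling precursors, which in macaque were at 264 and 266 CPM against 643 and 836 CPM.

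In the mouse, Rgs16 was highest in precursors. Small pre-B cells, with Rag1 but without Ms4a1 (CD20), had 229 CPM (221 to 237) from 3359 UMIs in 2700 cells. Cells with both Rag1 and Ms4a1 had 168 CPM (156 to 180), B cells with neither had 128 CPM (118 to 138), and all other classes were at 41.4 CPM or lower. Immature or transitional-type B cells were at 30.9 CPM (28.0 to 34.0), mature follicular-type at 8.2 CPM (5.9 to 11.2) and pro-B and surrogate light chain-positive cycling cells between 3.8 and 5.3 CPM, with overlapping intervals. A UMI of Rgs16 was found in 22.8% of thinned small pre-B cells, 19.2% of Rag1-positive Ms4a1-positive cells and 0.99% of mature follicular-type cells. It was found in 0 of 303 plasmacytoid dendritic cells, which allows a share of up to 0.990%. Their median depth before thinning was 14268 UMIs against 5190 in small pre-B cells, so the background of the shallower cells may be larger.

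**Figure D4:**
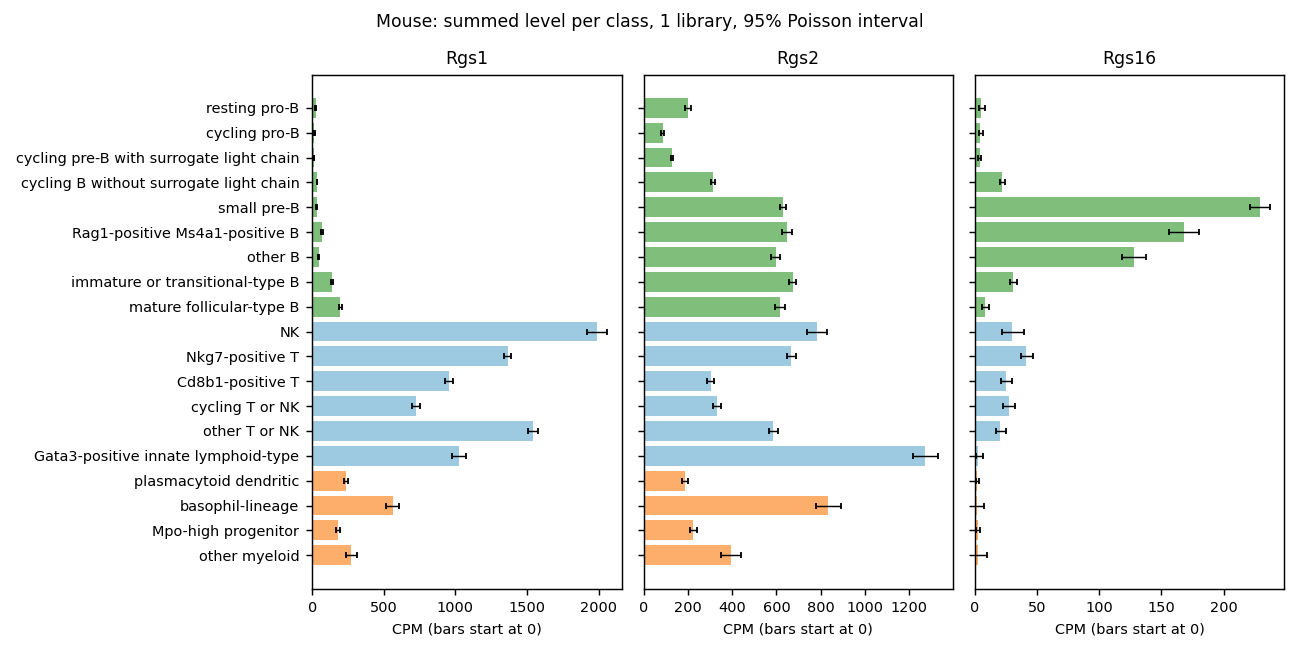
Level of Rgs1, Rgs2 and Rgs16 in the 19 classes of the mouse library, in CPM on linear axes from 0, with 95% Poisson intervals; green bars are B-lineage, blue T, NK and innate lymphoid, and orange myeloid and plasmacytoid dendritic classes. Rgs1 is highest in NK cells (1986 CPM), Rgs2 in Gata3-positive innate lymphoid-type cells (1273 CPM) and Rgs16 in small pre-B cells (229 CPM).

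Rag1 encodes a subunit of the recombinase that cuts the antigen receptor genes, and small pre-B cells are known as the stage of light chain rearrangement. Rgs16 in Rag1-positive B cells was part of the choice of the genes, so the values by Rag1 are a description. All non-cycling B cells with Rag1 and without pro-B markers had 214 CPM of Rgs16 (208 to 221, 3507 cells), against 47.2 CPM (44.46 to 50.01, 3982 cells) in those with no Rag1 UMI, and shares of 22.0% against 6.51%. By the number of Rag1 UMIs after thinning, Rgs16 was at 69.9 CPM with 0, 226 CPM with 1, 233 CPM (217 to 251) with 2 and 316 CPM (295 to 339) with 3 or more. Rgs1 went the other way, from 111 to 41.0, 36.8 and 33.7 CPM. Rgs2 hardly varied, at 640, 650, 657 and 592 CPM. The same order held among cycling B cells without surrogate light chain, where Rgs16 was at 35.4 CPM (31.2 to 40.1) with Rag1 and 10.7 CPM (8.6 to 13.2) without, while Rgs1 was at 15.8 and 48.7 CPM.

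**Figure D5:**
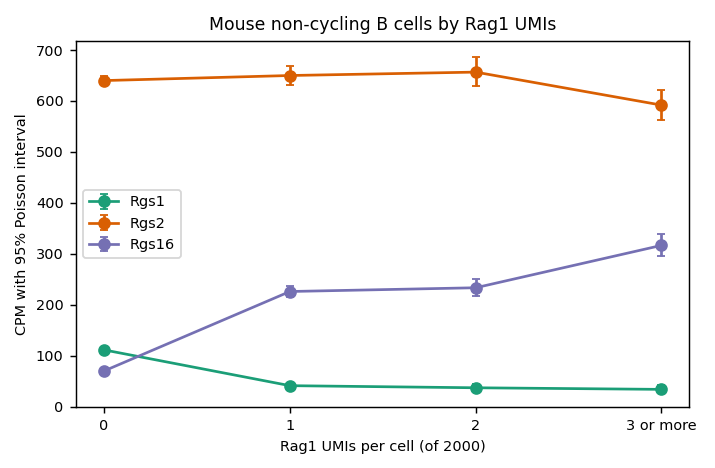
CPM of Rgs1, Rgs2 and Rgs16 in mouse non-cycling B cells by the number of Rag1 UMIs per cell after thinning to 2000 UMIs, with 95% Poisson intervals (1 library, counting error only). Rgs16 goes from 69.9 CPM without Rag1 to 316 CPM with 3 or more UMIs, Rgs1 from 111 to 33.7 CPM, and Rgs2 stays between 592 and 657 CPM.

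Among the Rag1-positive B cells, Rgs16 was higher where fewer kappa light chain transcripts were found. Cells with no UMI of Igkc, the kappa light chain constant region, after thinning had 381 CPM (348 to 416), those with 1 to 4 had 278 CPM (260 to 297) and those with 5 or more 185 CPM (179 to 193). B cells with neither Rag1 nor Ms4a1 showed the other order. They had 62.5 CPM (40.0 to 93.0, 38 cells) with no Igkc UMI and 133 CPM (123 to 144, 837 cells) with 1 or more. Among the Rag1-positive cells, Rgs16 was also split by other genes. Cells with 5 or more Ighm UMIs had 220 CPM (213 to 227) and the 85 cells with 1 to 4 had 56.3 CPM (39.8 to 77.3). By Il7r, the interleukin 7 receptor of precursors, the level was 197 CPM with 0 UMIs, 227 CPM with 1 to 4 and 221 CPM (186 to 261) with 5 or more. With Ms4a1, which appears as cells mature, it was 154 CPM against 225 CPM without, and Rgs1 was 79.3 CPM against 32.8 CPM. The UMIs were uneven: the 5% of small pre-B cells with most Rgs16 held 43.3% of its UMIs, and 964 of 2700 cells had at least 1 before thinning. Rgs16 was found in 22.4% of small pre-B cells with Rgs1 and 22.9% of those without, and in 22.8% with Rgs2 and 22.9% without, so that its share was alike with and without either.

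Set side by side at 1000 UMIs per cell, RGS16 was found in 16.0% (exact 95% interval 14.7 to 17.5%) of mouse small pre-B cells and in 0 of 220 and 0 of 208 macaque ones. In the macaque meninges it was found in atypical-type B cells and GZMB-positive cells, at the shares given above, and in further classes. The mean share of the channels was 9.05% in other T or NK, 8.08% in cycling T or NK, 9.32% in IGHM-low B and 9.58% in other cycling B cells. Mouse NK and Nkg7-positive T cells held it in 1.22% and 2.98% of cells. Mouse other T or NK and cycling T or NK cells held it in 1.82% and 2.59%. RGS2 at the same depth was found in 43.7% of mouse and 27.3% and 29.3% of macaque small pre-B cells, and RGS1 in 2.78% against 7.73% and 5.29%. The gates were not identical, since the macaque gate also takes cells with RAG2, DNTT or VPREB1, but macaque small pre-B cells with a UMI of RAG1 or RAG2 likewise gave 0 of 187 and 0 of 178. The libraries also differ in age, sex and gene models, and the difference between species was not tested.

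The levels were also ranked by likeness across class-by-channel sums of at least 30 cells, 52 in macaque and 19 in mouse, as Pearson r of log2(CPM + 10). The sums share libraries and depth, so r is a description only. In macaque, the genes most like RGS1 included FOS (0.87), NR4A2 (0.85), TNFAIP3 (0.84) and FOSB (0.84). RGS2 was most like RASGEF1B (0.90), DDIT3 (0.88), NR4A1 (0.87), H3-5 (0.87) and 1 gene without a symbol (0.86), and RGS16 like FAM177A1 (0.88), ZNF331 (0.88), ISCA1 (0.84), GPR183 (0.84) and AHI1 (0.82). Among themselves RGS1 and RGS2 had an r of 0.62, RGS1 and RGS16 of 0.65, and RGS2 and RGS16 of 0.45. In mouse, Rgs1 was most like Zfp36l2 (0.96), Klf6 (0.95), Cnn2 (0.95), Diaph1 (0.95) and Itgal (0.95). Rgs2 was most like Neurl3, Btg2, Dusp5, Selenok and Herc1 (0.82 to 0.85), and Rgs16 like Sash3, Gpbp1l1, B4galt1, Sirt7 and Mat2b (0.85 to 0.87). Among the mouse members r was 0.55 for Rgs1 and Rgs2, 0.39 for Rgs2 and Rgs16 and -0.13 for Rgs1 and Rgs16. The macaque sums span meninges and spleen, the contrast for which the members were picked. The mouse sums come from 1 meningeal library, so r was not compared between species.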

How the data were processed

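The tables deposited by the authors hold UMI counts, not normalized, for each gene in each cell. Cell Ranger is named as the tool per the submitters' processing notes, and mm10 as the build of every library, so that for macaque the true reference is unknown here. A macaque gene that 1 table does not list was counted as 0 there. Cells were kept if they had 300 genes or more and no more than 10% mitochondrial UMIs. No doublet caller was run. A cell was gated to a lineage with at least 2 marker UMIs and 3 times those of each other lineage, and to a class by marker UMIs. Shares were computed after thinning cells to 1000 (macaque) or 2000 (mouse) UMIs, which left out 365 and 425 meningeal, 2069 and 1572 splenic and 61 mouse cells. Counts were summed per class and channel where all 4 channels held at least 50 cells, and tissues were compared with edgeR 4.0.16 in R 4.3.3 (TMM, filterByExpr, quasi-likelihood test, Benjamini-Hochberg over all genes tested, threshold 0.05), after the script had been tested on simulated data. Poisson and binomial intervals are exact, at 95%. Python 3.11.15, numpy 2.4.6, scipy 1.17.1, pandas 2.3.3 and matplotlib 3.10.9 were used, and DESeq2 1.42.0 for an alternative.

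Each SE is the log2 difference divided by the square root of the test's F. Fitted log2 differences include the TMM scaling and CPM values do not, so they need not match. The labels do not pair channels. The members and lists were chosen with earlier results of these data known. From the pathway lists, the 3 largest rises and falls per class are named, among genes whose average log2 CPM was 5 or more, and other pathway genes named were chosen after their values were seen. Genes of like pattern are the 5 with the highest r, among those with a mean of at least 20 CPM and at least 100 CPM in 1 sum. UTR lengths and positions come from GENCODE for GRCm38. Motifs of the promoters were not analysed here. A few genes that these rules would name are not reported here.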

Additional observations from a re-analysis of the deposited data

How the results depend on the processing

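All 19 member differences kept their direction under each alternative that could be fitted. The call that the fit would make for them was lost in 2 classes. In germinal centre B cells RGS1 was 2.10 without the low-count filter and 2.22 with gates on thinned cells, and RGS2 was 1.78 and 1.52. In plasma cells RGS1 was 1.90 with DESeq2, 2.07 with gates on thinned cells and 1.94 without the 2% of cells with most UMIs, and RGS2 was 1.05, 0.99 and 1.12. Leaving out 1 channel moved plasma RGS1 between 1.11 and 2.42 and plasma RGS2 between 0.43 and 1.49, and germinal centre RGS1 between 1.99 and 2.30 and RGS2 between 1.55 and 2.23. With the channel number as a replicate block, plasma RGS2 was 0.98, germinal centre B cells gave 139 genes instead of 87, and no other member call was lost. The deviations of channels with the same number correlated at -0.12 to -0.04, so the numbers were not taken to pair channels. Counts of genes called moved by over 1.5 times as follows. With DESeq2 they were 1073 instead of 2391 in atypical-type, 1350 instead of 2618 in follicular-type, 609 instead of 1283 in IGHM-low, 1557 instead of 3037 in IGHM-positive FCER2-negative B cells, 1393 instead of 2868 in GZMB-positive and 228 instead of 463 in plasma cells. The share of these called higher was 75.3% instead of 59.3%, 69.0% instead of 57.9%, 77.8% instead of 64.9%, 68.4% instead of 56.0% and 68.8% instead of 57.4% in all but the last. Without the filter they were 1581 in follicular-type, 0 in germinal centre B cells (edgeR; 1006 at an unadjusted p under 0.05) and 699 in plasma cells. With gates on thinned cells they were 869 in atypical-type, 1263 in follicular-type, 3013 in IGHM-low, 7 in germinal centre B cells and 214 in plasma cells. Those gates left 6 and 4 meningeal germinal centre B cells and 37 and 38 meningeal plasma cells, under the minimum of 50. Meningeal IGHM-low B cells went from 155 and 156 to 362 and 371. Without the 2% of cells with most UMIs, 46 and 49 meningeal plasma cells were left. The classes of these settings are thus not of like size to the main ones. Leaving out 1 channel gave 1070 to 2739 in follicular-type, 1802 to 2955 in IGHM-positive FCER2-negative, 53 to 284 in germinal centre B cells and 265 to 578 in plasma cells. The lowest counts came without meningeal channel 2 in the first 2 classes (1632 and 2019 without meningeal channel 1) and without splenic channel 1 in plasma cells, and in germinal centre B cells it was 284 and 141 without meningeal channel 1 and 2 and 53 without splenic channel 2. In the mouse, Rgs16 was 265 CPM in small pre-B and 205 CPM in Rag1-positive Ms4a1-positive cells under a stricter cell filter (500 genes, 5% mitochondrial), and 238 and 182 CPM with gates on thinned cells, and kept its order. The cause of these shifts was not tested. Depth limits RGS16 in splenic GZMB-positive cells (3 and 0 UMIs) and plasma cells (2 and 0 UMIs), but less so in splenic atypical-type B cells (55 and 60 UMIs).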

Other observations

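Other RGS genes marked their own cell classes. RGS9, known from retina and striatum, was abundant in macaque GZMB-positive lymphocytes, at 556 and 524 CPM in meninges and 703 and 649 CPM in spleen, and its fitted log2 difference between tissues there was -0.08 ± 0.08 (edgeR adjusted p = 0.474). In CPM both splenic channels lay above both meningeal ones, but CPM has no TMM scaling and the fit has. RGS9 stood at 356, 221, 204 and 230 CPM in the GZMK-positive cells of the same channels and at 6.2 to 24.4 CPM in atypical-type B cells. In mouse NK cells Rgs9 had 1 UMI and in Nkg7-positive T cells 4 UMIs. RGS18, known from platelets and myeloid cells and encoded beyond Rgs21 from Rgs1 in the mouse, had 133 and 144 CPM in meningeal CFD-high myeloid cells of macaque and 0 UMIs in all 4 channels of atypical-type B cells. In mouse, Rgs18 had 142 CPM in basophil-lineage and 121 CPM in plasmacytoid dendritic cells. Mouse Rgs10 was at 289 CPM in plasmacytoid dendritic cells and Rgs3 at 127 CPM in NK cells. These genes were chosen after their values were seen.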
